A study of Mus musculus with 4 samples.

Results

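The Serpin gene family encodes serpins, serine protease inhibitors that present a flexible loop as bait and trap the protease that cuts it. Its members were taken here as every protein-coding gene of the mm9 annotation whose symbol begins with Serpin, which gave 60 of 22367 protein-coding genes. Many, though not all, clade A serpins and several single serpins are secreted by hepatocytes into the blood. There they restrain coagulation, complement and neutrophil proteases or carry hormones. Clade B serpins lack a classical signal peptide, mostly stay inside cells, and are best known from epithelia and leukocytes. Chromatin at the nuclear envelope (NE) is in general poorly transcribed, and the question put to the data was where the Serpin genes lay relative to the NE in hepatocytes with and without Tm7sf2.

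The positions came from DamID, in which a bacterial Dam methylase fused to LaminB1, a protein of the nuclear lamina, methylates adenine in GATC sites that touch the NE. The 4 libraries were Dam-LaminB1 and Dam only from wild-type (WT, Tm7sf2+/+) hepatocytes and the same pair from Tm7sf2-/- hepatocytes (KO). Tm7sf2, also called NET47, is a sterol reductase and NE transmembrane protein, lost here in every cell of the animal. Mice of both genotypes were 12 to 16 weeks old on a C57BL/6 background, the DNA of 4 mice was pooled per library, and the primary hepatocytes had been plated, exposed to lentivirus for 24 h and harvested 60 h after transduction, so that signal came from the transduced share of cultured cells and, through the pools, carried no replicate. With 1 library per group no difference between genotypes could be tested, and each value below is a single measurement without an error.

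Lamina-associated domains (LADs), the stretches where Dam-LaminB1 exceeded Dam only, numbered 8107 in WT and 16076 in KO and covered 55.4% and 56.1% of the genome. The KO pair of libraries was sequenced less deeply than the WT pair, and the part of depth in the LADs called was not tested. Differential regions (DRs) are the parts of the LADs of one genotype that lie outside those of the other, at least 10 kb long. Genes touching a WT-only DR are PI (peripheral in WT, interior in KO), genes touching a KO-only DR are IP, genes touching both are AMB, and the remaining genes are PP when LADs of both genotypes overlap them and II when they do not. The lists give positions and no signal, so they show neither the deletion of Tm7sf2 nor how strongly a gene was labelled. All 7 hepatocyte marker genes found in the annotation were II, and of 12 markers of other liver cell types 6 were II, 4 IP, 1 PI and 1 PP. These positions are no measure of how pure the hepatocytes were.

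Of the 60 Serpin genes, 35 were II, 16 PP, 5 PI, 3 IP and 1 AMB. Over all protein-coding genes, 56.6% were II, 17.9% PP, 5.43% PI, 17.1% IP and 2.96% AMB. In percent the Serpin genes were 58.3% II, 26.7% PP, 8.33% PI, 5% IP and 1.67% AMB. The PP share was above and the IP share below that of all genes, as a description only, since neighbouring members share LADs and are not independent. LADs covered 51.5% of the summed Serpin gene span in WT and 48.5% in KO, where they covered 38.3% and 42.3% of that of all genes. Transcription starts lay in LADs for 18 Serpin genes in WT and 22 in KO (30% and 36.7%), beside 22.7% and 32.8% of all starts. The share of the span in LADs was equal in both genotypes for 50 of the 60 members, higher in KO for 5 and lower in KO for 5. Over all 22367 protein-coding genes it was equal for 16042, higher in KO for 4470 and lower in KO for 1855.

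The family averages hid a division by position in the genome. With neighbours at most 500 kb apart counted together, the members formed 3 clusters of 22, 11 and 15 genes and left 12 dispersed genes. The Serpina cluster of chromosome 12 was 21 II and 1 PI. The Serpinb cluster of chromosome 1 had no II gene and was 8 PP, 2 PI and 1 AMB. The Serpinb cluster of chromosome 13 lay between them with 7 PP, 5 II, 2 IP and 1 PI, and the dispersed genes were 9 II with 1 each of PP, PI and IP. Taken by clade, 22 of 23 Serpina genes were II against 5 of 26 Serpinb genes, and LADs covered 0.727% of the Serpina span and 71.6% of the Serpinb span in WT, with 0% and 69.4% in KO.

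**Figure D1:**
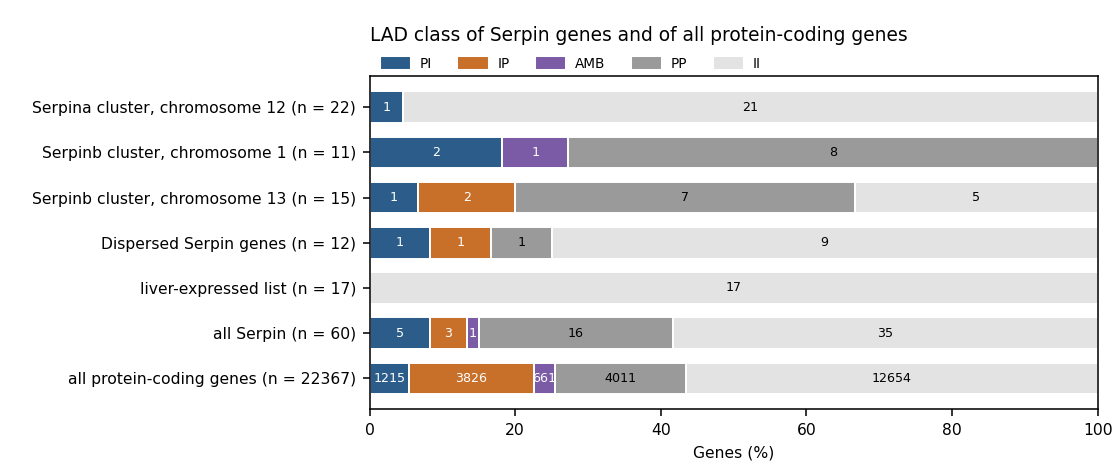
Share of genes (%) in each LAD class for the Serpin groups and for all protein-coding genes, with the number of genes printed in each bar segment. The liver-expressed list is 17 of 17 II and the chromosome 1 Serpinb cluster has no II gene, while the classes of all 60 members together are 26.7% PP and 5% IP beside 17.9% and 17.1% of all genes.

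The clades also differed in base composition. Median GC content of the gene spans was 48.05% in the Serpina genes and 39.99% in the Serpinb genes, and 45.6% over all genes. The density of GATC sites, on which DamID depends, had medians of 2.94 and 2.67 sites per kb, beside 2.41 over all genes, so both clades offered more sites per kb than the median gene. Median gene length was 9.17 kb for Serpina and 14.1 kb for Serpinb. Between the clades the lower GC content stood with the higher LAD share, but this did not hold throughout the family. The dispersed genes had a median GC content of 45.3% and 47.7% of their span in WT LADs. The chromosome 13 Serpinb genes had a lower GC content, 41.6%, and 40.8% of their span in WT LADs. Serpina7 had 37.5% GC and no LAD in either genotype. The part of GC content in the LAD shares was not tested.

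Textbook knowledge gave a list of 17 serpins that hepatocytes secrete. All 17 were II and had 0% of their span, none of their 99 exons and no transcription start in a LAD of either genotype. The list includes the alpha-1-antitrypsin genes Serpina1a to Serpina1e. It also includes Serpinc1 (antithrombin), Serpind1 (heparin cofactor II), Serpina10 (inhibitor of activated factor X with protein Z), Serpinf2 (alpha-2-antiplasmin), Serping1 (C1 inhibitor), Serpinf1 (pigment epithelium-derived factor), the hormone carriers Serpina6 (corticosteroid-binding globulin) and Serpina7 (thyroxine-binding globulin), Serpina11, and Serpina3k, Serpina3m and Serpina3n of the antichymotrypsin group. Serpina genes of the chromosome 12 cluster that are not on the list had nearly the same positions, with 10 of 11 II, so these positions did not set the listed genes apart from their neighbours.

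In the list the median distance from the transcription start to the nearest LAD was 369 kb in WT and 67.8 kb in KO. Over all genes the same median was 114 kb in WT and 25.6 kb in KO, shorter in KO as well. That median counts starts inside a LAD as 0 kb, which were 22.7% of all starts in WT and 32.8% in KO. The list held no such start, so its median and that of all genes are not like for like. The longest distance of the family in WT belonged to Serpinh1 (the collagen chaperone HSP47, not on the list), with 1431 kb in WT and 15.1 kb in KO. Serpinf1 and Serpinf2, neighbours on chromosome 11, lay 1060 kb and 1077 kb from a WT LAD and 594 kb and 577 kb from a KO LAD. Serpinc1 on chromosome 1 was 369 kb from a WT LAD and 67.8 kb from a KO LAD. Serping1 on chromosome 2 was at 350 kb and 124 kb, and Serpind1 on chromosome 16 was at 494 kb and 58.7 kb. Serpina7 on the X chromosome was the nearest of the list in WT, at 37.3 kb, and stood at 15.7 kb in KO.

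The Serpina cluster (chr12:104854885-105652539, 797.7 kb, mm9) runs from Serpina10 to Serpina3n, and its only other protein-coding gene is Gm46. In WT a single LAD of 28.5 kb lay inside it and covered 3.58% of the cluster. In KO that LAD was not called and 3 others of 16.7, 12.1 and 10.8 kb covered 4.96%. No base of the cluster lay in LADs of both genotypes. The megabase to the left of the cluster was 1.44% LAD in WT and 13.4% in KO, the megabase to the right 27.6% and 23.0%. The nearest gene outside was Ppp4r4 (IP) on the left and Gsc (II) on the right.

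**Figure D2:**
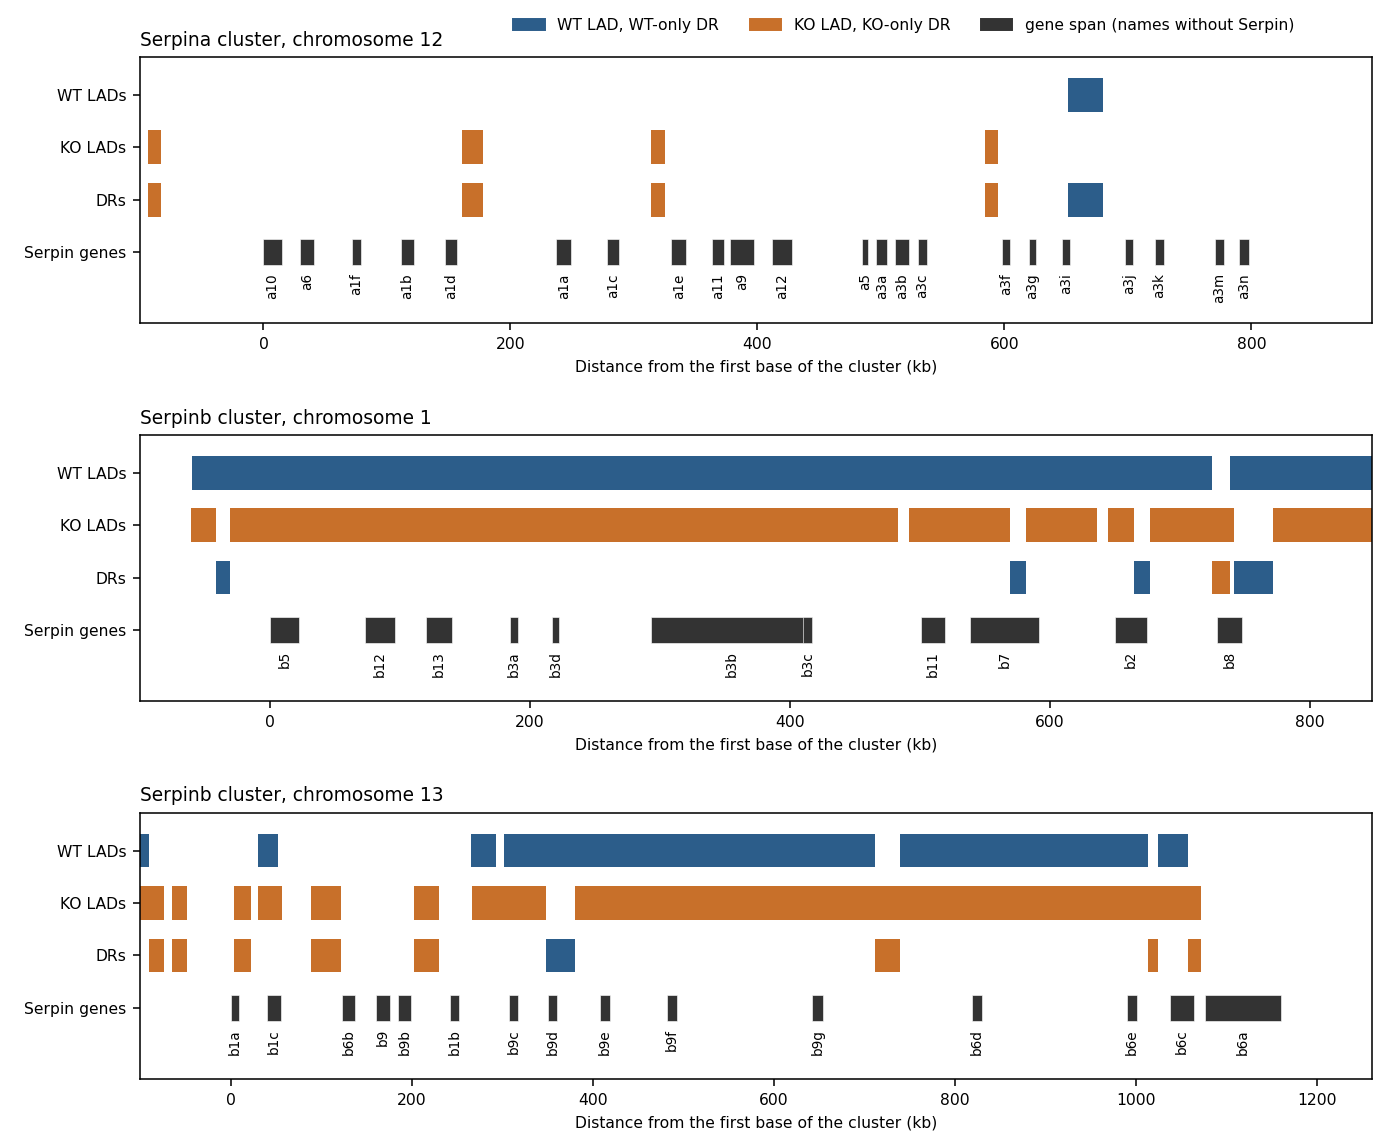
Maps of the 3 Serpin clusters with LADs of WT (blue) and KO (orange), DRs and gene spans (black, names without Serpin). The x axis is the distance in kb from the first base of the cluster. The Serpina cluster holds 1 short WT LAD and 3 short KO LADs at different places, the chromosome 1 Serpinb cluster lies in 2 WT LADs and 5 KO LADs with narrow gaps, and the chromosome 13 cluster changes from LAD-poor at its left end to LAD-rich in its middle.

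The 5 genes Serpina1a to Serpina1e share nearly the same sequence before the starts that RefSeq gives them, which is shown because short reads from such copies are hard to place. The lines below give 106 bases upstream of each RefSeq start on the coding strand (all on the minus strand of chromosome 12), set on the hexamer GTTAAT in capitals, which forms one side of the consensus of the liver factor HNF1. The positions in mm9 are chr12:105101835-105101940 for Serpina1a, chr12:104976410-104976515 for Serpina1b, chr12:105143172-105143277 for Serpina1c, chr12:105011844-105011949 for Serpina1d and chr12:105195170-105195275 for Serpina1e. The sequences are from RefSeq promoter windows of GRCm38.p6 that matched mm9 exactly. For Serpina1a and Serpina1e the mm9 annotation begins the gene further upstream, so these bases lie inside the gene span, downstream of the start used for distances.
Serpina1a: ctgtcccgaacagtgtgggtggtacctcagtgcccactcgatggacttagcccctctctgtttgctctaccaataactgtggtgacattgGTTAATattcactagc
Serpina1b: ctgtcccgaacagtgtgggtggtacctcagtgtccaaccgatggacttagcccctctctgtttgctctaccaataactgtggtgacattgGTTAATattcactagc
Serpina1c: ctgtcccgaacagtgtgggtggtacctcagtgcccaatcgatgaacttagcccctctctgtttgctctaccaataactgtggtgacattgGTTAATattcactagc
Serpina1d: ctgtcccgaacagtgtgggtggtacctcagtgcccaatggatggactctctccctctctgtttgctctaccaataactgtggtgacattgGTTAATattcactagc
Serpina1e: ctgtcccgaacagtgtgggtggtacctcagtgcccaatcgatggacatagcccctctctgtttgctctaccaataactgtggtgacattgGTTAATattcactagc

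Over these 106 bases, compared column by column without gaps, 96 were the same in all 5 genes and the 10 pairs were 93.4 to 98.1% identical. Promoter windows (250 bases before to 50 after a RefSeq start) were given for 51 of the 60 members, as 60 windows with alternative starts. Each matched its own chromosome of mm9 at 1 place, and other chromosomes were not searched. GTTAAT on either strand stood in 7 of 14 windows of the liver-expressed list and in 7.10% of all 32851 windows. Of that list Serping1, Serpina10, Serpina6, Serpina3k and Serpina3m had no window. By position it stood in 6 of 19 windows of the Serpina cluster and in 3 of 11 of the dispersed genes. It stood in 3 of 12 of the chromosome 1 Serpinb cluster and in 0 of 18 of the chromosome 13 Serpinb cluster. The 7 windows of the list were those of the 5 near-identical Serpina1 copies and 2 overlapping windows of Serpina7, so they are not independent. The hexamer TATAAA, anywhere in the window on either strand, stood in 9 of 12 windows of the chromosome 1 Serpinb cluster. It stood in 4 of 19 of the Serpina cluster and in 13.6% of all windows. Those 9 windows include alternative windows of Serpinb2 and Serpinb12 and the windows of Serpinb3 paralogs, so they are not independent either. No window of the Serpina cluster had a base in a LAD of either genotype. A match describes the letters of a window and not a bound site.

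The 3 KO LADs of the Serpina cluster were separate domains between genes and touched no gene span of the family. The first (chr12:105015741-105032409) began 3.94 kb upstream of the start of Serpina1d, and the second (chr12:105168328-105180413) lay between Serpina1c and Serpina1e and ended 4.73 kb past the 3′ end of Serpina1e. The third (chr12:105439106-105449926) ended 2.83 kb before the start of Serpina3f, an antichymotrypsin paralog. The start of Serpina1d was 494 kb from a LAD in WT and 3.94 kb in KO, that of Serpina1e 309 kb and 16.8 kb, that of Serpina1c 363 kb and 25.2 kb, that of Serpina1b 530 kb and 39.4 kb, and that of Serpina1a 402 kb and 64.2 kb. The start of Serpina10 stood 618 kb from a LAD in WT and 97.5 kb in KO, that of Serpina6 611 kb and 120 kb, and that of Serpina11 278 kb and 47.7 kb. At the right end of the cluster the order was the other way round. The start of Serpina3k stood 42.2 kb from a LAD in WT and 127 kb in KO, that of Serpina3m 90.9 kb and 136 kb, and that of Serpina3n 110 kb and 117 kb. The 11 genes of the cluster outside the list (Serpina1f, Serpina9, Serpina12, Serpina5 and Serpina3a, b, c, f, g, i and j) ranged from 4.67 to 572 kb in WT and from 2.83 to 103 kb in KO.

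**Figure D3:**
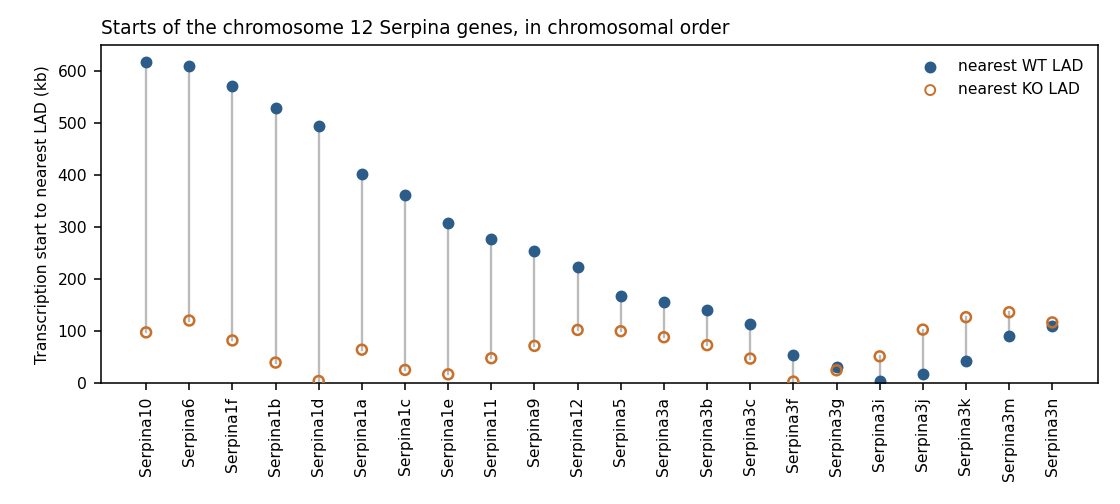
Distance in kb from each transcription start of the chromosome 12 Serpina genes, in chromosomal order, to the nearest LAD of WT (filled blue) and KO (open orange). From Serpina10 to Serpina3g the KO LAD is nearer, and from Serpina3i to Serpina3n the WT LAD is nearer.

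The borders of these domains are shown to give the GATC sites between which each domain was called. Each line gives 40 bases of the plus strand of mm9 around a border, with the GATC at which the domain begins or ends in capitals. All 56 LAD borders in the 3 clusters and within 100 kb of them fell on such a site. Ratios were formed for fragments that end at GATC sites, so this was fixed by the method.
KO LAD by Serpina1d, left border, chr12:105015720-105015759: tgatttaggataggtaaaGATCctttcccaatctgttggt
KO LAD by Serpina1d, right border, chr12:105032389-105032428: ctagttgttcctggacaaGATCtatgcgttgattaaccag
KO LAD by Serpina1e, left border, chr12:105168307-105168346: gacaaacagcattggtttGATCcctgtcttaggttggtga
KO LAD by Serpina1e, right border, chr12:105180393-105180432: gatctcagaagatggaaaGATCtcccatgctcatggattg
KO LAD by Serpina3f, left border, chr12:105439085-105439124: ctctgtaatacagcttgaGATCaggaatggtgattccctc
KO LAD by Serpina3f, right border, chr12:105449906-105449945: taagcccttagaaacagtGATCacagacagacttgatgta

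How much of this sequence a read can be assigned to was measured as the share of 50-base words that occur at a single place in the genome. In the 3 KO LADs this share was 39.3, 47.97 and 40.6%, and over the whole Serpina cluster it was 80.1%. Words copied elsewhere within the cluster made up 47.2, 14.9 and 36.2% of the 3 LADs. The genes Serpina1a to Serpina1e had unique shares of 44.8 to 61.2% (median 57.1%), and Serpina1c had the lowest share of the cluster. The WT LAD at Serpina3i was 86.5% unique, and the KO LAD to the left of the cluster, beyond Serpina10, 99.3%. Low unique shares thus stood with the KO-only domains inside the cluster, and their part in those calls was not tested.

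**Figure D4:**
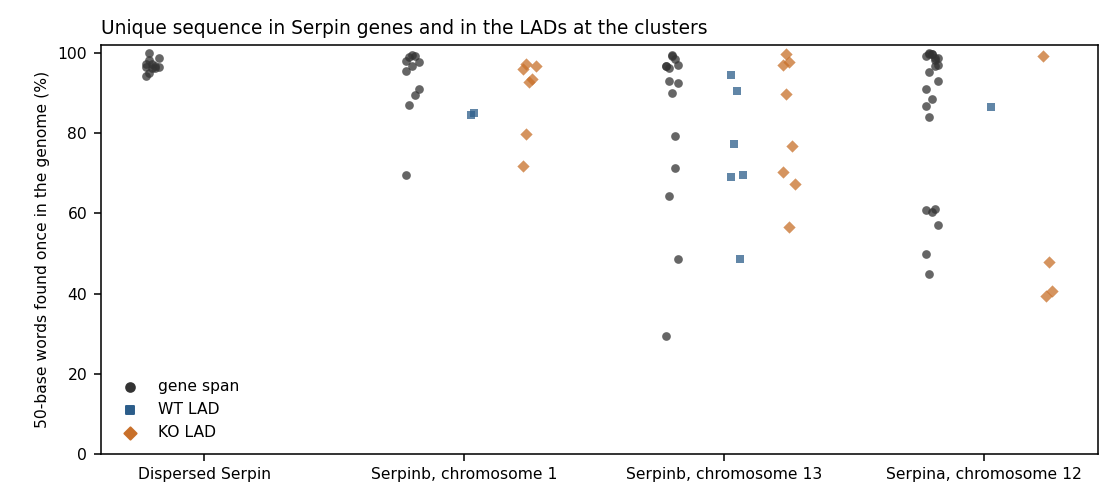
Share of 50-base words found at a single place in the genome (%), for each Serpin gene span (black circles) and each LAD in the clusters or within 100 kb of them (blue squares WT, orange diamonds KO). The 3 KO LADs inside the Serpina cluster lie between 39.3 and 47.97%, below the other LADs shown (lowest 48.6%), while the dispersed genes lie above 94%.

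Serpina3i, a further antichymotrypsin paralog (chr12:105501332-105507582), was the only PI gene of the Serpina cluster. The WT LAD (chr12:105506002-105534522) covered 25.3% of its span and 2 of its 6 exons, at the 3′ end, and no KO LAD touched it. Its start lay 4.67 kb outside the WT LAD, so its promoter was outside LADs in both genotypes. The lines below give the borders of the WT LAD in the same way, with GATC in capitals.
WT LAD at Serpina3i, left border, chr12:105505981-105506020: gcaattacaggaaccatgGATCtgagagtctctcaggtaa
WT LAD at Serpina3i, right border, chr12:105534502-105534541: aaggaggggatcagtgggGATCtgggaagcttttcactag

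The Serpinb cluster of chromosome 1 (chr1:108757750-109505486, 747.7 kb) holds Serpinb5 (maspin), Serpinb12, Serpinb13, Serpinb3a to Serpinb3d (relatives of the human squamous cell carcinoma antigens), Serpinb11, Serpinb7, Serpinb2 (plasminogen activator inhibitor 2) and Serpinb8. LADs covered 98.1% of it in WT in 2 stretches and 93.6% in KO in 5, and 91.7% of it lay in LADs of both genotypes. Of its 86 exons, 78 lay in LADs of both genotypes, 5 in WT LADs only and 3 in KO LADs only. Serpinb5, Serpinb12, Serpinb13, Serpinb3a, Serpinb3b, Serpinb3c, Serpinb3d and Serpinb11 were 100% LAD in WT and in KO. The span of Serpinb3b (124.4 kb) runs across Serpinb3c through a read-through transcript, so both share the same bases. The left flank was 19.6% LAD in WT and 39.9% in KO up to 1 Mb away, beginning beyond Vps4b (II), and the right flank 96.7% and 85.6%, where Cdh7 (PI) is the nearest gene.

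The 3 members of this cluster whose LAD share differed between genotypes stand at its right end. Serpinb7 was 100% LAD in WT and 77.7% in KO, where a WT-only DR of 11.8 kb (chr1:109327389-109339200) took up 2 of its 8 exons while the start stayed in a LAD. Serpinb2 was 100% LAD in WT and 59.7% in KO. The WT-only DR behind this (chr1:109422361-109435080, 12.7 kb) lay past the end of its main coding transcript, and all 8 exons of that transcript were in LADs of both genotypes. Serpinb8, a furin inhibitor and the only AMB member, was 47.1% LAD in WT and 69.3% in KO. A KO-only DR (chr1:109482057-109496584, 14.5 kb) held its start and 3 exons, a WT-only DR (chr1:109499690-109529376, 29.7 kb) held 3 others, and 1 exon was in LADs of both. In WT the start of Serpinb8 was 4.53 kb from the nearest LAD.

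**Figure D5:**
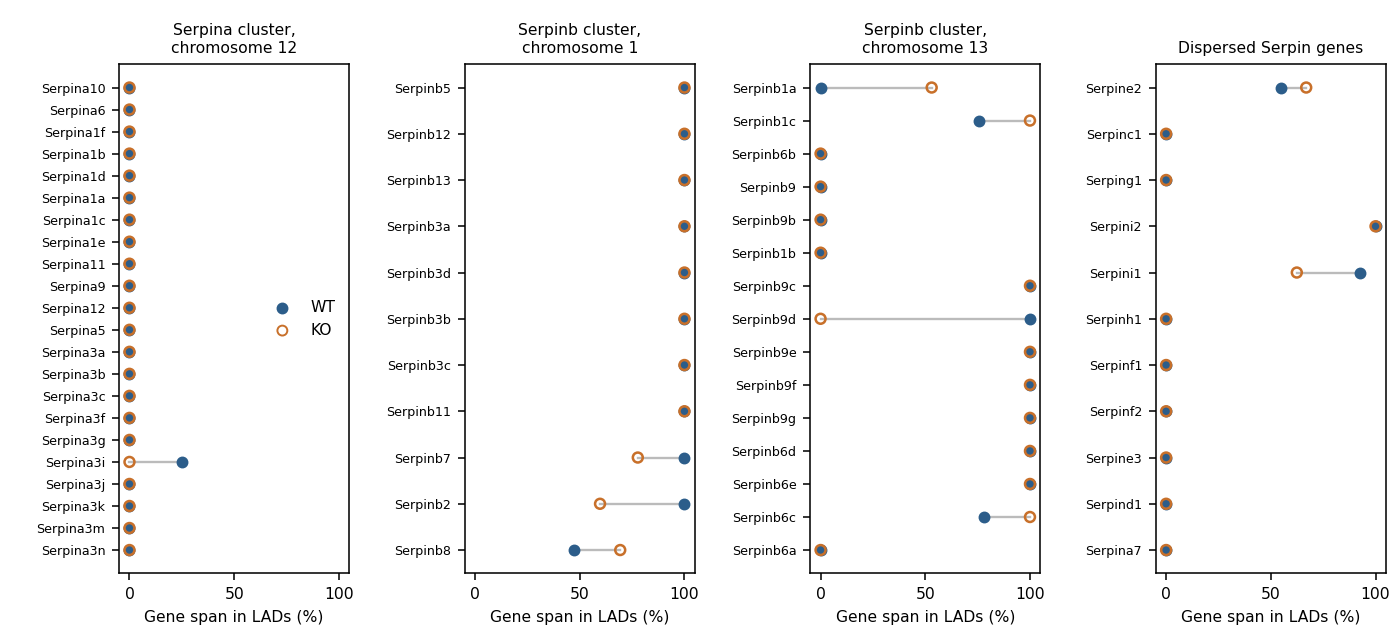
Share of each gene span in LADs (%), WT as filled blue and KO as open orange circles, for the members in chromosomal order within each cluster, without 1 dispersed gene that is not reported here. Most members stand at 0 or 100% in both genotypes, and Serpinb9d alone goes from 100% to 0%.

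The Serpinb cluster of chromosome 13 (chr13:32933961-34094663, 1160.7 kb) holds Serpinb1, Serpinb6 and Serpinb9 genes, which have expanded in mouse. Serpinb1a inhibits neutrophil elastase, Serpinb6a inhibits cathepsin G, and Serpinb9 protects cytotoxic lymphocytes from their own granzyme B. LADs covered 66.0% of the cluster in WT and 75.6% in KO, with 63.1% shared. It held 6 KO-only DRs (130.6 kb inside the cluster) and 1 WT-only DR (32.02 kb). Over the gene spans alone the shares were 40.8% and 42.5%, so most of the KO-only sequence lay between Serpin genes. The megabase to the left was 64.3% LAD in WT and 66.7% in KO, with Wrnip1 (II) as the nearest gene, and no base of the megabase to the right, where Bphl (II) is nearest, was in a LAD of either genotype.

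Within the cluster the paralog groups did not keep together. Serpinb6b, Serpinb9, Serpinb9b, Serpinb1b and Serpinb6a were 0% LAD in both genotypes. Serpinb9c, Serpinb9e, Serpinb9f, Serpinb9g, Serpinb6d and Serpinb6e were 100% LAD in both. Serpinb1c was PP and stood at 75.6% in WT and 100% in KO. Its 2 exons at the 5′ end and its start lay in a LAD in KO only, over a stretch below the 10 kb that a DR needs. The unique shares were 48.7% in Serpinb9f and 29.5% in Serpinb9g, the lowest of all members, and 69.9% over the cluster.

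Serpinb9d, a paralog of the granzyme B inhibitor gene, was the only member whose start left a LAD, beside 586 of 22367 genes in all. Its span (chr13:33284828-33294998) was 100% LAD in WT and 0% in KO, and all 7 exons were in a WT LAD only. The WT LAD (409.3 kb) reached from before Serpinb9c to beyond Serpinb9g, and in KO a gap of 32.02 kb (chr13:33282395-33314415) opened in it over Serpinb9d, with Serpinb9c 30.8 kb before the gap and Serpinb9e 27.1 kb after it still 100% LAD. The gap held 97 GATC sites (3.03 per kb), close to the 3.04 per kb of the whole cluster, and 84.7% of its words were unique, above the 69.9% of the cluster. The lines show its borders and the 250 bases before the RefSeq start of Serpinb9d (chr13:33284574-33284823, plus strand), with each GATC in capitals. The start lay 2.43 kb from the KO LAD that ends at the left border.
Gap over Serpinb9d, left border, chr13:33282374-33282413: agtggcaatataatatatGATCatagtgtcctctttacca
Gap over Serpinb9d, right border, chr13:33314395-33314434: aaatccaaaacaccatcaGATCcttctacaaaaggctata
Serpinb9d, before the start: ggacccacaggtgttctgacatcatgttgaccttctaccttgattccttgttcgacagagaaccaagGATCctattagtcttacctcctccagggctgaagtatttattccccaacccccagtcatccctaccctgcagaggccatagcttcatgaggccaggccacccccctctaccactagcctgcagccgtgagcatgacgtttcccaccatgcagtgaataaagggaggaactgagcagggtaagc

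Serpinb1a and Serpinb6c were the IP members of this cluster. Serpinb1a was 0% LAD in WT and 53.1% in KO, where a new LAD of 17.98 kb (chr13:32938230-32956210) held its start and 4 of its 7 exons. In WT its start was 21.02 kb from a LAD. Serpinb6c was 78.2% LAD in WT and 100% in KO through a KO-only DR of 14.2 kb (chr13:33991945-34006151) that held its start and 1 of its 10 exons. Both of these DRs were nearly all unique sequence (97.9 and 99.6%). In KO the LAD over Serpinb6c was 691.7 kb long and also covered Serpinb9e to Serpinb6e.

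The start lay in a LAD of KO only for 5 members in all, Serpinb6c, Serpinb8, Serpinb1a, Serpinb1c and Serpine2. Over all 22367 protein-coding genes this held for 2845 starts. For Serpinb6c and Serpinb8 the 250 bases before the RefSeq start, which were also in a LAD of KO only, are shown as examples. They lie at chr13:33997061-33997310 on the minus strand for Serpinb6c and at chr1:109486333-109486582 on the plus strand for Serpinb8. Those of Serpinb6c fall in the first intron of the annotated gene, downstream of the start used for the class. In each line GATC is in capitals, with 3 sites in Serpinb6c and 1 in Serpinb8.
Serpinb6c: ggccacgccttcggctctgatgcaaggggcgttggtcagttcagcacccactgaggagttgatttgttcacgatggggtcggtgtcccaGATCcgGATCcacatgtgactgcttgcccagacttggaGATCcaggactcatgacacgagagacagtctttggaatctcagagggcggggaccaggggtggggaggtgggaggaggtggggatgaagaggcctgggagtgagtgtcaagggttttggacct
Serpinb8: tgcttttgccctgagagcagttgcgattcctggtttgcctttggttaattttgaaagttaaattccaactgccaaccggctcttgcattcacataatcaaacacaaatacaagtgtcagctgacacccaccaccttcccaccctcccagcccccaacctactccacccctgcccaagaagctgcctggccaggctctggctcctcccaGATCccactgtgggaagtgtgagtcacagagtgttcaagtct

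Of the 12 dispersed genes, 9 were 0% LAD in both genotypes, among them Serpine3. Serpini2 (pancpin, on chromosome 3) was 100% LAD in both. Its neighbour Serpini1 (neuroserpin, a neuronal inhibitor of tissue plasminogen activator) was PI, 92.6% LAD in WT and 62.4% in KO, there as 2 stretches. The gap between these (chr3:75400893-75429672, 28.8 kb) took up 5 of its 9 exons, and its start was outside LADs in both genotypes, 6.40 kb from the WT LAD and 3.53 kb from the KO LAD. Serpine2 (protease nexin 1, an inhibitor of thrombin and urokinase, on chromosome 1) was IP, 54.8% LAD in WT (2 stretches) and 66.9% in KO (1 stretch). The KO LAD (353.2 kb) extended over its start and 2 exons that no WT LAD covered, while 1 exon was in a WT LAD only.

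The proteases that serpins act on, with receptors and cofactors, were read from a list of 27 genes. Of these, 22 were II, 3 IP, 1 AMB and 1 PP, and none was PI, beside 56.6% II, 17.1% IP, 2.96% AMB, 17.9% PP and 5.43% PI over all genes. The coagulation proteases F2, F7, F10, F11 and F12 and the plasmin precursor Plg were all II. So were the inhibitors Serpinc1, Serpind1, Serpina10 and Serpinf2 of the liver-expressed list, while another inhibitor of thrombin, Serpine2, was IP. F9 (coagulation factor IX) was AMB, and LADs held 36.8% of it in WT and another 6.29% in KO. C1s, a complement protease held by Serping1, was IP, with 0% in WT and 32.1% in KO of its annotated span (chr6:124480363-124586998). Its start lay outside LADs in both genotypes, 8.53 kb from the nearest KO LAD. Ctsg (cathepsin G) was 0% LAD in WT and 100% in KO, its start included. St14 (matriptase) was 0% LAD in WT and 47.3% in KO, with its start outside LADs in both genotypes. Gzma (granzyme A) was 100% LAD in both.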

How the data were processed

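DamID used hepatocytes of 2 genotypes and 4 libraries, 1 per group. The authors mapped reads to mm9 (BWA and limma appear in the submitters' processing notes, without versions), formed Dam-LaminB1 to Dam ratios per DpnI fragment and called LADs with DNAcopy. The 4 deposited lists used here hold LAD and DR borders without score or read number. The study states a deeper WT than KO library pair. Subtraction of the LAD lists gave all 7787 WT-only and 8208 KO-only DRs again.

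Genes came from the NCBIM37 annotation (the mm9 assembly). Exons are those of the coding transcript with most exonic bases, and starts are 5′ ends of gene spans. Positions are 1-based. Unique words were counted on both strands of the whole assembly; the length of 50 bases was chosen after the data were examined, since the read length is not given in the sources used here. Python 3.11.15, numpy 2.4.6, pysam 0.24.0 and matplotlib 3.10.9 were used. The interval steps (200 simulated sets for each of 5 steps, 0 errors) and word counts (0 errors) were tested on simulated data. The members, lists and rules were chosen with earlier results of these data known. The values of 1 dispersed member are not reported here. Named were members that were PI, IP or AMB, liver-expressed members, those with a start in a LAD of 1 genotype and those at the extremes of LAD share.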

Additional observations from a re-analysis of the deposited data

How the results depend on the processing

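No paired analysis was possible because each group held 1 library. The 5 PI members became 1 when 50% of the span had to lie in a DR (Serpinb9d), 1 when only the start was classed (Serpinb9d), 1 when LADs were joined across gaps of up to 50 kb (Serpina3i), and 10 when the 100 kb centred on the gene were classed. The 3 IP members became 17 with the 100 kb window and 1 with DRs of at least 20 kb (Serpine2). The Serpina cluster of chromosome 12 had 0% of its gene span in WT LADs of at least 50 kb, against 0.748%. Over whole clusters its share was 3.58% in WT and 4.96% in KO, and that of the chromosome 13 cluster was 66.0% and 75.6%. Within 1.5 times of the values in the text stayed 103 of 140 class counts, 25 of 30 shares and 18 of 18 counts of starts. These totals include values of 0 that stayed 0. They also include a restriction to members with a RefSeq protein, which all 60 have and which could change no share. Part of the totals was therefore fixed in advance, and they are no measure of stability. With the 100 kb window the II members went from 35 to 19 and those of the chromosome 13 cluster from 5 to 0. Of the 17 liver-expressed genes 7 then left II, with Serpina1b, Serpina1c, Serpina1d, Serpina1e, Serpina11 and Serpina7 as IP and Serpina3k as PI. The lists hold no read numbers, so the depth behind a border is unknown.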
